A study of Homo sapiens with 4 samples.

Results

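Places in the RNA of RD cells that were captured by the odd set of ZNF609 probes were compared with those captured by LacZ probes. The members are 1264 of the 1766 peaks in the series: the 542 peaks of the odd list and the 722 of the LacZ list. A peak is a stretch of the genome, made of bins of 170 bases, in which the authors' peak caller found more reads than its model allowed. An odd and a LacZ peak were matched where they shared at least 1 base, with strand ignored, and genes were assigned from RefSeq gene spans on GRCh38. The matches sort the peaks, and the genes, into those with odd and without LacZ, those with both, and those with LacZ and without odd.

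The series holds 4 samples of RD, a line established from an embryonal rhabdomyosarcoma, which is a tumour with features of developing skeletal muscle. In the odd sample, RNA was pulled down with biotinylated antisense probes of the odd set, directed at exon 2 of ZNF609. In the LacZ sample, the same was done with probes against the bacterial LacZ mRNA, which the cells lack, so these probes measure the background of the procedure. The other samples are a pull-down with the even set of ZNF609 probes, used here only to ask whether a peak was found there too, and a total lysate, not analysed here. The labels give no treatment or change of genotype for any sample. All come from 1 cell line, with 1 library per probe set, so no value has a replicate error and no difference between odd and LacZ has a test. Intervals are exact Clopper-Pearson 95% intervals for shares of peaks or genes, which cover counting error alone. They treat peaks as independent, although 1 gene can hold several, so intervals that do not overlap are a description and no test.

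Circular RNAs form when a downstream splice site of an exon is joined to an upstream one, which leaves an RNA without ends. circ-ZNF609 is such a circle, made from exon 2 of the zinc finger gene ZNF609, and it is known from muscle precursor cells and rhabdomyosarcoma. Antisense capture of an RNA also brings down RNAs that are paired with it or bound to it through proteins, together with RNAs that stick to beads or probes, which the LacZ pull-down samples.

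Sequences are shown for peaks that reach the annotated start of their gene, where the start windows give the bases under part of the peak. In the promoter windows of RefSeq on GRCh38.p14, 16 odd and 19 LacZ peaks reached a start window of any gene, and 11 and 15 reached that of the gene they were given to. The 5 windows below belong to genes with 1 listed start, and the peak covers 79 to 144 of the bases printed. Each is printed 5′ to 3′ on the strand of the gene, from 250 bases before the start to 30 bases after it, with the bases inside the peak in capitals. The peaks lie on a grid of bins, so capitals may run past the end of the captured RNA. In each window most of the capitals lie before the annotated start.
SURF6: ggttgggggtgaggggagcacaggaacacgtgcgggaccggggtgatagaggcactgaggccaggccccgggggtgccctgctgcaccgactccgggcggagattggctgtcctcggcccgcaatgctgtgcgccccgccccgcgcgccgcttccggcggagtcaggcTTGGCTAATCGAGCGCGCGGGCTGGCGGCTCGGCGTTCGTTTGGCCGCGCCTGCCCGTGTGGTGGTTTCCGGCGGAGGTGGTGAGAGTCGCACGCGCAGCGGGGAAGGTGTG
SARNP: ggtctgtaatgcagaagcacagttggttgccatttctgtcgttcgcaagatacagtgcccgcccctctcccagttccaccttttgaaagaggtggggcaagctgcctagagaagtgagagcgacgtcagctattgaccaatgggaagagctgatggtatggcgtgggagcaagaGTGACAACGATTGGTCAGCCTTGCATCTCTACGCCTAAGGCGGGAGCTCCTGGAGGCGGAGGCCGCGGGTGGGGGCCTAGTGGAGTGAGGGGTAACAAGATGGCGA
FAM32A: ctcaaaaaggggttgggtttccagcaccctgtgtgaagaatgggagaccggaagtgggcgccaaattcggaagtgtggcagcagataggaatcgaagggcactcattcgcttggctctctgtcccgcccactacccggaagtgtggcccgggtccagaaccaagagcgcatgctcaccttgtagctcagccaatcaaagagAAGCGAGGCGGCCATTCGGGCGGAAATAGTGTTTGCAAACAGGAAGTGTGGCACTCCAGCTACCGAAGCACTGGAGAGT
EIF5B: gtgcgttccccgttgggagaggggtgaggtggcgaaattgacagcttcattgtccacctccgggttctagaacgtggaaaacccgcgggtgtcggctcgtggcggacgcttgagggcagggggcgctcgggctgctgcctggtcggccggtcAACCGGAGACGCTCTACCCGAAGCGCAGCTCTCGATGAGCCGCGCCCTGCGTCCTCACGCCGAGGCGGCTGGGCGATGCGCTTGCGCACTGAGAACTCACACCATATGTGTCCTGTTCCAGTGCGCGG
ATP5ME: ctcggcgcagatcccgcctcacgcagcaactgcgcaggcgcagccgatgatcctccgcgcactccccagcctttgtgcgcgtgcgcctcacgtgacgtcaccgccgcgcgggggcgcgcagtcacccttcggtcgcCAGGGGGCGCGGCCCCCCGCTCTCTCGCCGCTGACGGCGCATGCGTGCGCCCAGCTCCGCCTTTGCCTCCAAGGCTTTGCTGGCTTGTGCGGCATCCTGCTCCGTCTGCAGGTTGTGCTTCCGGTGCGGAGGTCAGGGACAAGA

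The first pair had odd and no LacZ peaks at the start. SURF6, a nucleolar protein gene, had its window at chr9:133336159-133336438 on the minus strand, and the odd peak there had 599 reads per bin at rank 46. SARNP, whose protein acts in export of mRNA from the nucleus, had its window at chr12:55817695-55817974 on the minus strand, with an odd peak of 352 reads per bin at rank 132. FAM32A, at chr19:16185160-16185439 on the plus strand, was captured at its start by both probe sets, with 207 odd reads per bin at rank 289 of 542 and 116 LacZ reads per bin at rank 352 of 722. The last pair had LacZ and no odd peaks. EIF5B, whose protein joins the ribosomal subunits at the start of translation, had its window at chr2:99337139-99337418 on the plus strand and a LacZ peak of 123.5 reads per bin at rank 326. ATP5ME, a subunit gene of mitochondrial ATP synthase, had its window at chr4:674247-674526 on the minus strand and a LacZ peak of 198 reads per bin at rank 150. The 5 windows held 72.5%, 57.1%, 56.4%, 66.1% and 71.1% G and C in the order printed, against a median of 58.2% over all 35116 windows of the table. SARNP and FAM32A lay below that median, and SURF6 and both windows with LacZ and no odd peak lay above it. These values are of whole windows. The printed bases inside the peak held 70.5%, 63.2%, 55.7%, 65.6% and 69.4% G and C in the same order. At most 30 of these bases per window lie after the annotated start, so the values are mostly of sequence before it. They do not give the base content of the captured RNA.

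Most places captured by the odd probes had no LacZ peak. Of the 542 odd peaks, 88 shared bases with a LacZ peak, which is 16.2% (95% interval 13.2 to 19.6). Seen from the control, 87 of the 722 LacZ peaks shared bases with an odd peak, which is 12% (9.76 to 14.6). The odd peaks without a match held 73.0% of the 279415 reads in odd peaks, and the LacZ peaks without a match held 83.1% of the 219401 reads in LacZ peaks. No pair shared fewer than 170 bases, which is 1 bin, and 46 of the 88 pairs had the same start and end. A further 6 odd peaks lay within 200 bases of a LacZ peak without touching its bases, in JUN, ABCF1, SPTBN1, MYO10, PRELID1 and NSRP1, and with these as matches the odd share would be 17.3%. Most odd peaks also had no peak of the even set, the other set of ZNF609 probes. An even peak lay at 39 of the 88 matched and 55 of the 454 unmatched odd peaks. A missing LacZ match is therefore no measure of specific capture.

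The level of a peak is given as reads per bin of 170 bases, averaged over the bins joined into it, as deposited and not scaled to the size of the library. It served to rank peaks within each list. It is not corrected for the amount of each RNA in the cells, so a strong peak here is a peak with many reads. It does not measure how strongly the RNA was captured. The order by deposited p-value differed, and by it 14 of the 25 leading odd genes described below would be chosen again. Odd peaks ran from 105 to 2324 reads per bin with a median of 221.5, and LacZ peaks from 38 to 2203.33 with a median of 115. The strongest 10 peaks held 8.97% of the odd and 13.8% of the LacZ peak reads, and the strongest 50 held 32.0% in either list.

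**Figure D1:**
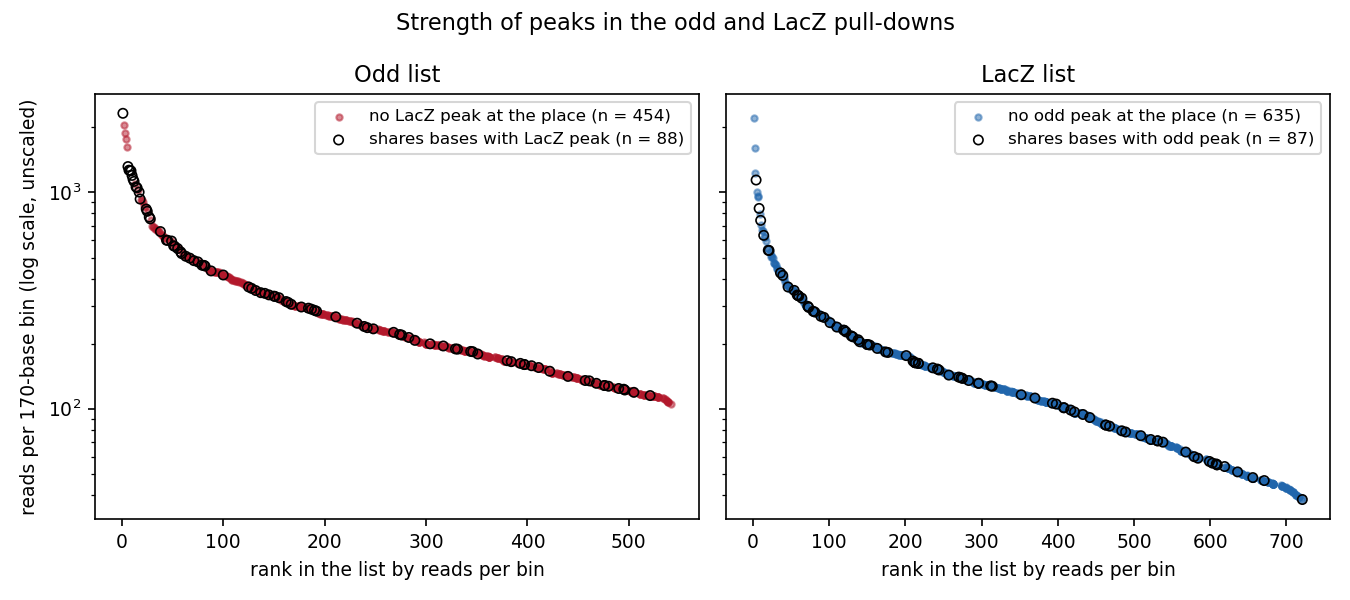
Reads per bin of 170 bases (log scale, unscaled) against rank within the odd list (left, 542 peaks) and the LacZ list (right, 722 peaks); open circles mark peaks that share bases with a peak of the other list, 88 and 87 of them. Matched peaks occur along the whole of both curves, and most of the strongest LacZ peaks have no odd match.

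The share with a match was higher among strong odd peaks than among weak ones. With the odd list split by rank into 4 groups of about equal size, 37 of the 136 strongest peaks had a match, or 27.2% (19.9 to 35.5), and the share was 14.8% and 12.5% in the middle groups and 10.4% (5.79 to 16.8) in the weakest. The LacZ list had the same order, at 19.3% (13.9 to 25.9), 11.1%, 10.5% and 7.22% (3.9 to 12), and in each list the intervals of the strongest and weakest group did not overlap. Matched peaks cluster in genes, which these intervals ignore: RBM25 alone gave 4 matched peaks in the strongest odd group. Among the strongest 50 peaks, 20 odd peaks were matched (40%, 26.4 to 54.8) and 9 LacZ peaks (18%, 8.58 to 31.4), with intervals that overlapped. Matched odd peaks had a median of 311.5 reads per bin and a median rank of 163, and unmatched ones 210.1 and 287.5.

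**Figure D2:**
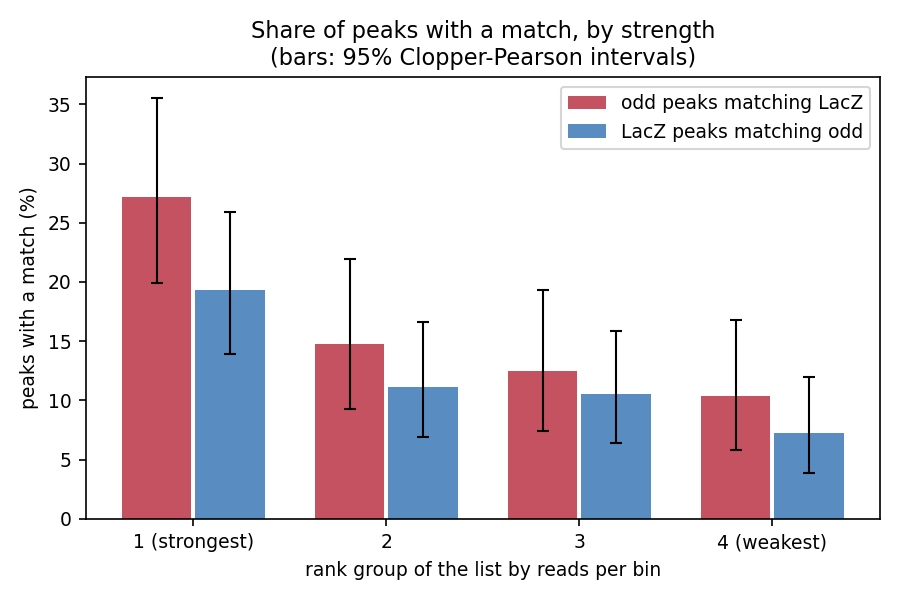
Share of peaks (%) with a match in the other list, by rank group (each list split into 4 groups of about equal size, from strongest to weakest reads per bin); red bars are odd peaks that match LacZ, blue bars LacZ peaks that match odd, and lines are 95% Clopper-Pearson intervals. The share is highest in the strongest group of both lists, at 27.2% and 19.3%, and lowest in the weakest, at 10.4% and 7.22%.

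The even pull-down was not used by the matching, and its peaks were unevenly spread over the classes. An even peak lay at 39 of the 88 odd peaks that matched LacZ, or 44.3% (33.7 to 55.3), and at 55 of the 454 odd peaks that did not, or 12.1% (9.26 to 15.5). LacZ peaks without an odd match had an even peak at 36 of 635 places, or 5.67% (4 to 7.76). The 3 intervals did not overlap, and the highest share was at places captured with odd and LacZ probes alike. The matched odd peaks were also stronger and wider than the unmatched, with medians of 311.5 against 210.1 reads per bin and 340 against 170 bases. The shares were not adjusted for this, and its part in the difference was not tested.

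Peaks outside annotated genes were a feature of the LacZ list. They numbered 6 of the odd peaks (1.11%, 0.407 to 2.39) and 79 of the LacZ peaks (10.9%, 8.76 to 13.4), and none of the 85 was matched. Of the 79 LacZ peaks, 6 lay on chromosome Y or a contig, against 0 of the odd peaks. Contigs were left out of the gene spans, so a peak there counts as outside genes. The strongest odd peak outside genes stood at rank 54 with 554 reads per bin, while 10 of the strongest 50 LacZ peaks lay outside genes. Protein-coding genes held 97.4% of odd and 84.6% of LacZ peaks, and long noncoding RNA genes 0.923% and 3.74%. An unnamed score in the deposited lists, whose meaning no source used here gives, takes 1 fixed value in some bins, and 54 of the 79 LacZ and 3 of the 6 odd peaks outside genes included such a bin. Without peaks over such bins the shares outside genes were 4.52% for LacZ and 0.577% for odd, so the order of the lists stayed while the LacZ share was lower.

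The position of peaks within genes differed little. Counted from the annotated start along the gene span, the median position was 69.2% for unmatched odd peaks, 68.5% for matched odd peaks and 66.3% for unmatched LacZ peaks, and 42.3%, 40% and 39.1% lay in the final 25% of the span. The intervals of these shares overlapped. Unmatched odd peaks were the narrowest, with 56.8% of them 1 bin wide (52.1 to 61.4) against 38.6% of the matched (28.4 to 49.6) and 48.2% of the unmatched LacZ peaks (44.2 to 52.2, which meets the odd interval at its edge). Gene spans include introns, and exons were not used here, so no peak is placed in an exon, an intron or an untranslated region.

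By gene, 671 genes had a peak in either list. Of these, 225 (33.5%) had an odd and no LacZ peak, 100 (14.9%) had both, and 346 (51.6%) had a LacZ and no odd peak. These percentages are the background against which the gene lists below are read. The 225 genes held 343 odd peaks and 52.8% of the reads in odd peaks, and 85 of them had at least 2 odd peaks. The 100 genes with both were all protein-coding and held 45.9% of the odd reads but 23.1% of the LacZ reads. In 63 of them odd and LacZ peaks overlapped, and in the other 37 the peaks lay apart in the same gene. An even peak was present in 43 of the 225 genes (19.1%, 14.2 to 24.9), 44 of the 100 (44%, 34.1 to 54.3) and 44 of the 346 (12.7%, 9.39 to 16.7).

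The probe target was in the odd class. ZNF609 (gene ID 23060, chromosome 15, 64459578 to 64686068) had 3 odd peaks, with 394, 230 and 174 reads per bin at ranks 109, 255 and 362, and the nearest LacZ peak lay 343230 bases away from the first. In the same order these peaks lay at 17.8%, 94.6% and 93.1% along the gene span, and the first alone shared bases with an even peak. The probes were aimed at this RNA, so its capture checks the label against LacZ, and not odd against even. CKAP5 (gene ID 9793), a microtubule polymerase named in the title of the series, had 2 odd peaks with 269 and 197 reads per bin at ranks 204 and 309 and no LacZ peak within 362100 bases. Neither gene was among the 25 described next.

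The 25 genes with the strongest odd peaks and no LacZ peak ran from 1768 to 472.5 reads per bin, and the next gene, DNAJC21, stood at 472. Proteins that pack or modify chromatin were among them. HMGN1 (gene ID 3150, chromosome 21, 39342315 to 39349088), a small protein that binds nucleosomes, had peaks of 1768 and 689 reads per bin, the stronger at rank 4 of 542 and at the start of the gene. The processed copy HMGN1P38 had a peak of 695 at rank 31 and HMGN1P37 one of 155 at rank 411, and reads of such near-identical copies may be shared between them. ANP32B, an acidic histone chaperone, had peaks of 857 and 387.5, KAT6A, a histone acetyltransferase, of 745 and 125, and the linker histone gene H1-3 one of 645. Genes of transcription elongation were among them too: SUPT5H, a subunit of the DSIF factor, at 634, and AFF4, a scaffold of the super elongation complex, at 472.5, with POLR3D, a subunit of RNA polymerase III, at 548 and 4 further peaks from 113 to 196.

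RNA processing factors formed another part of the 25. SRRM1 (gene ID 10250, chromosome 1, 24643302 to 24673281), a splicing coactivator rich in serine and arginine, had peaks of 1630.5 and 926.5 reads per bin at ranks 5 and 19, both near the end of the gene and both found with the even probes. SRSF11, an SR protein, had peaks of 514, 415 and 165. HNRNPU, a nuclear RNA-binding scaffold, had 1 of 489.5, and UPF2, a core factor of nonsense-mediated decay, 1 of 597 that was also found with the even probes.

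Muscle and cytoskeleton genes followed. TNNT1, the troponin T of slow skeletal muscle, had peaks of 564, 490 and 387 reads per bin, which lay in alternate bins of the grid near the start of the gene. DES, the intermediate filament protein of muscle, had peaks of 501 and 273, both found with the even probes. EPB41L2, a linker of spectrin and actin to the membrane, had 4 peaks from 815 down to 133, and ITSN1, a scaffold of endocytosis, had 4 of similar strength from 511 to 407.5. These are peaks in a pull-down and not expression levels: of 9 marker genes of embryonal rhabdomyosarcoma 3 had an odd peak (DES, TNNT1 and TNNT2) and 1 a LacZ peak (TNNT2), and 0 of 4 markers of blood cells had a peak in either list.

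The rest of the 25 have varied roles. OS9, a lectin of endoplasmic reticulum quality control, had 5 odd peaks with 904, 663, 199, 190 and 160 reads per bin, all between 80.7% and 97.5% along the gene span. TCEAL9 had 869.7 and 680, RPS6KA2, a ribosomal S6 kinase, 673.3, and HSP90AB1, a cytosolic chaperone, 630. BTBD2 had 571.5, PLXNA1, a semaphorin receptor, 543, INTU, a planar polarity protein of cilia, 520, TAP1, a peptide transporter of antigen presentation, 501.5, and TNIP1, an inhibitor of inflammatory signalling, 495. Of the 25 genes, 16 had at least 2 odd peaks and 9 had an odd peak that shared bases with an even peak. The strongest peak of 4 of them (RPS6KA2, BTBD2, INTU and TAP1) included a bin with the fixed score. Ranked by the deposited p-value, 14 of the 25 would be chosen again.

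**Figure D3:**
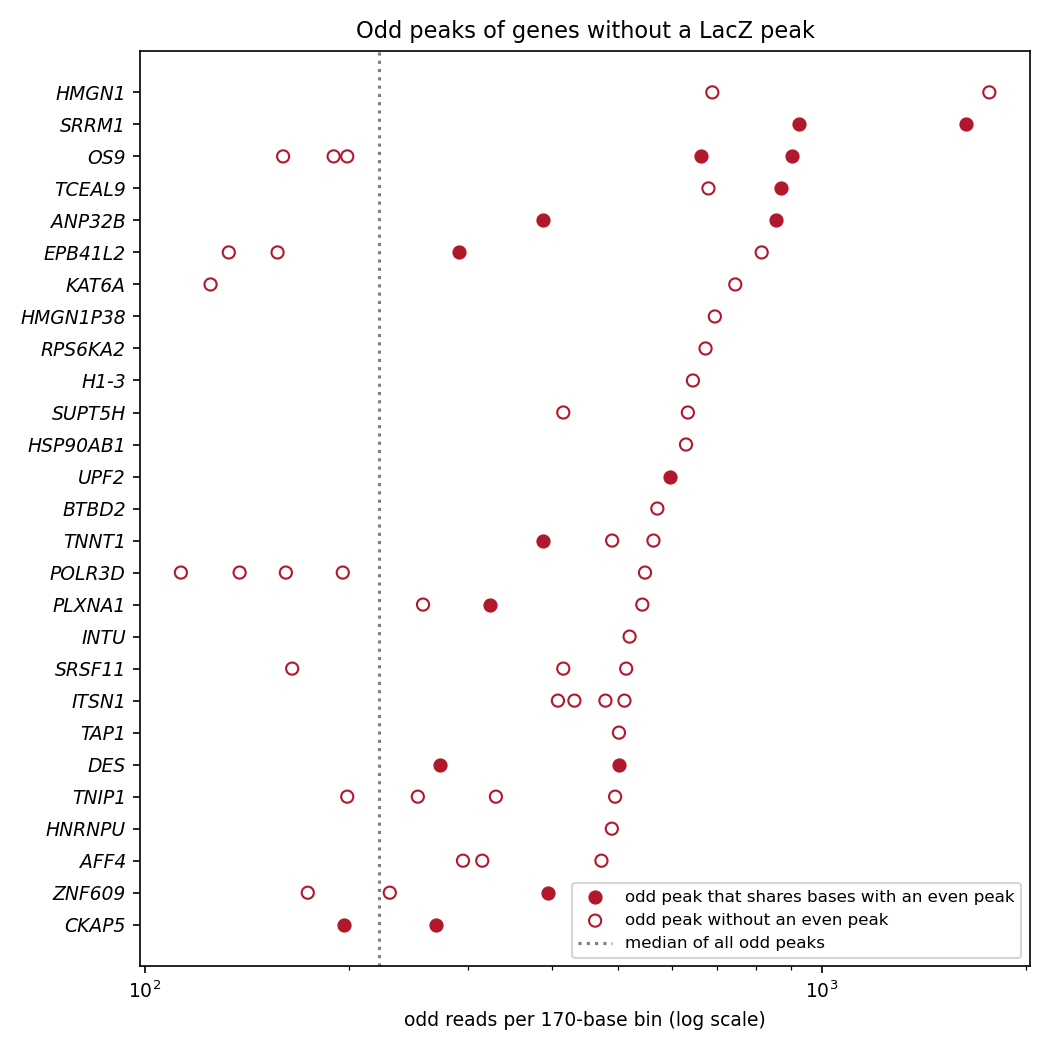
Odd reads per bin (log scale) of every odd peak in the 25 genes with the strongest odd peaks and no LacZ peak, and in ZNF609 and CKAP5; 1 point is 1 peak, filled where it shares bases with an even peak, and the dotted line is the median of all odd peaks, 221.5. HMGN1 and SRRM1 stand apart at the top with 1768 and 1630.5, and both CKAP5 peaks are filled.

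Genes with overlapping odd and LacZ peaks included the strongest odd peak of all. TRIM44 (gene ID 54765), a tripartite motif protein, had 2324 odd reads per bin at rank 1 near the start of the gene, and the LacZ peak at the same bases had 250 at rank 101 of 722. PTMS, the acidic nuclear protein parathymosin, ranked high in both lists, at 10 with 1199 and at 8 with 844 reads per bin. PRRC2C, a large RNA-binding protein, had 1268.25 at rank 7 and 424.5 at rank 36. In RBM25, a splicing regulator, all 4 odd peaks were matched: 1318, 1259, 1153 and 1060.5 odd reads per bin stood against 264.3, 198, 166 and 190 LacZ reads per bin. Its odd peaks all ranked in the first 14 and its LacZ peaks between 93 and 210.

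Other genes of this class ranked higher with the LacZ probes. CREBBP, an acetyltransferase that acts with many transcription factors, had 1142 LacZ reads per bin at rank 4 where the odd peak had 330.5 at rank 151. Its other matched places had 507 and 477.5 odd reads against 231 and 217 LacZ reads, so the order of the lists turned within 1 gene, and the place with the strong LacZ peak included a bin with the fixed score. ENAH, a regulator of actin filament growth, had 743 LacZ reads at rank 10 and 433.7 odd reads at rank 88. LNX2, AVPI1 and TRAF3IP1, named after their values were seen, had LacZ ranks of 14, 20 and 21 and odd ranks of 232, 521 and 211. The remaining leading genes were SRRT, a partner of the cap-binding complex (odd rank 18, LacZ rank 72), ALPK3, a muscle kinase (38 and 60), CHAF1A, a subunit of the chromatin assembly factor (27 and 79), GPATCH4 (79 and 39), ANKRD11 (81 and 46) and PDCD11, a factor of ribosome assembly (51 and 138).

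Across the 88 pairs, strength in one pull-down was weakly related to that in the other. The Spearman correlation of reads per bin was 0.22 over the 88 places, given as a description, since places share the same 2 libraries. Relative to the length of its list, the odd peak ranked higher in 50 pairs and the LacZ peak in 38. In 19 pairs both peaks stood in the strongest of the 4 rank groups of their list, and in 17 the unscaled LacZ reads exceeded the odd reads.

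**Figure D4:**
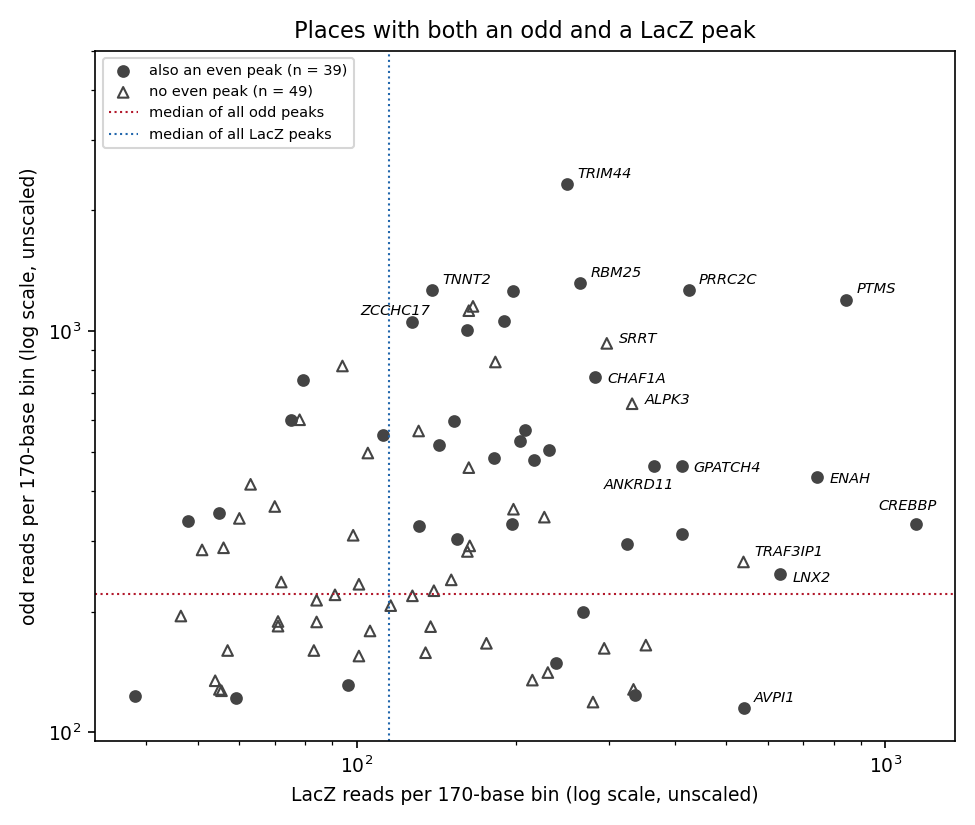
Odd against LacZ reads per bin (both log scales, unscaled) at the 88 places with overlapping peaks; filled circles also have an even peak (39 places), open triangles do not (49), dotted lines are the medians of all odd (221.5) and all LacZ (115) peaks, and selected genes are named at their first-ranked place. TRIM44 is highest by odd reads, CREBBP is farthest right by LacZ reads, and PTMS is high on both axes.

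Genes with many odd peaks mostly had LacZ peaks too. Of the 22 genes with at least 4 odd peaks, 13 had a LacZ peak, against 100 of all 325 genes with an odd peak. TNNT2, the troponin T of heart and developing skeletal muscle, had the most, with 8 odd peaks of 1264, 1051.5, 755, 601, 336, 305, 295 and 275.5 reads per bin. The 5 of them from 1264 to 336 were matched by LacZ peaks of 139, 127, 79, 75 and 48 reads per bin, which ranked from 273 to 656 of 722, and the 3 weakest had no match. ODF2, a centriole protein, had 6 odd peaks of which 1 was matched, RRBP1, a ribosome-binding protein of the endoplasmic reticulum, also had 6 of which 1 was matched, and EIF3A, a subunit of initiation factor 3, had 5 of which 3 were matched.

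Some of the strongest odd peaks stood beside LacZ peaks of the same gene without overlap. GIGYF2, a translational repressor, had an odd peak of 2062 reads per bin at rank 2 that had no match, while its peaks of 819 and 601.5 matched LacZ peaks of 94 and 78. DNMT1, the maintenance DNA methyltransferase, had 1884 at rank 3 without a match, 3910 bases from its nearest LacZ peak, and peaks of 457 and 220.25 with one. MAP1B, a microtubule-associated protein, had 1091.3 at rank 13 and 336, both found with the even probes, and a LacZ peak of 187 elsewhere in the gene. MYH9, the heavy chain of nonmuscle myosin, went the other way with 4 odd peaks, 3 of them matched, and 10 LacZ peaks. The genes with at least 4 odd peaks and no LacZ peak that are not among the 25 were NOP14 (5 peaks, 144 to 258 reads per bin, in part on bases shared with its antisense gene), DNAJC21 (4 peaks, 259.5 to 472), TPR (4 peaks, 109 to 189) and UBE2Q1 (4 peaks, 110 to 230, also beside an antisense gene).

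The LacZ pull-down had strong genes of its own. NACC1, a transcriptional regulator with a BTB domain, had the strongest LacZ peak at 2203.33 reads per bin and another of 1226.5 at rank 3, together 4.13% of all reads in LacZ peaks, and no odd peak. SGCZ, a sarcoglycan gene, followed with 960.5 at rank 6, ARL6IP4 with 952 at rank 7, PDE4B, a cyclic AMP phosphodiesterase, with 792.5 at rank 9 and CCDC50 with peaks of 709, 624 and 597. PELI1, a ubiquitin ligase, had 673.3, MYOF, the membrane repair protein myoferlin, 664.7, the long noncoding RNA gene LOC105373963 553, XAB2, a splicing and repair factor, 549.5, DOCK1, an activator of Rac, 516.5 with 4 further peaks, CHLSN 505.7 and AMBRA1, an autophagy regulator, 500.5. None of these 12 genes had an even peak. The strongest peak of 8 of the 12 included a bin with the fixed score, which 26% of all unmatched LacZ peaks did (22.6 to 29.6), against 4.6% of matched LacZ peaks (1.27 to 11.4) and 4.41% of unmatched odd peaks (2.71 to 6.72). The part of these bins in the LacZ class was not tested.

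Gene lists were read by counts beside the background of 33.5% odd without LacZ, 14.9% both and 51.6% LacZ without odd. HMG and ANP32 proteins were listed with other nuclear proteins that hold acidic stretches, among them NCL, PTMS and PTMA. The list had more members in the odd class than in the LacZ class. Of 18 members 8 had a peak: 5 with odd and no LacZ, 2 with both and 1 with LacZ and no odd. HMGN1 and ANP32B are given above, HMGB2 had 427 odd reads per bin, ANP32A 421 and HMGN5 165, and the last 3 peaks were all found with the even probes. The nucleolar protein NCL, at 550.5 odd and 112 LacZ reads per bin on the same bases, and PTMS were shared, and PTMA, a close relative of PTMS, had a LacZ peak of 142 and no odd peak. The median best rank of the 7 genes with an odd peak was 55, against 265 over all 325 genes with an odd peak. Ranked by the deposited p-value the same medians were 260 and 243, so the high standing of the list was in reads per bin and not in p-values. Of its 5 genes with odd and no LacZ, 1 (HMGN1) had a peak with a p-value under 0.001.

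Splicing factors and SR-related proteins had a peak for 19 of 71 members, 9 with odd and no LacZ, 4 with both and 6 with LacZ and no odd. Beside SRRM1, SRSF11 and HNRNPU, the first 9 were ACIN1 (best peak 326.7 reads per bin), PPIG (250), PRP4K (237), SAFB2 (204), SRSF9 (183) and PNN (139.5). SRRM2, the larger relative of SRRM1, had 5 odd peaks from 193.5 to 368 and 1 LacZ peak of 176 apart from them. The neighbours and paralogs SAFB2 and SAFB fell on opposite sides, with 3 odd peaks in SAFB2 and 3 LacZ peaks of 121, 119 and 44 in SAFB, and SF3A1, a core splicing subunit, had LacZ peaks of 259.5 and 239. Paralogs share sequence, and the sources used here do not say how multiply aligned reads were placed.

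Nucleolar and ribosome assembly genes had a peak for 20 of 61 members, 9 with odd and no LacZ, 6 with both and 5 with LacZ and no odd. PES1, a factor of large subunit assembly, had odd peaks of 430 and 253 reads per bin, the helicases DDX27 and DDX18 best peaks of 302.7 and 268.5, and MDN1, the large ATPase of subunit maturation, 204. TCOF1, the treacle protein of ribosomal DNA transcription, had odd peaks of 615.5 and 446 with LacZ peaks of 66.5 and 42 elsewhere in the gene, and SURF6, shown above, 599 and 501.5 with LacZ peaks of 151, 105 and 96 elsewhere. The LacZ side held NOP56 at 116.3 and RRP12 at 57.5. Ubiquitin, SUMO and proteasome genes had 7 of 50 with a peak, 5 with odd and no LacZ (OS9, UBA2 at 442, RNF213, UBR4 and HUWE1), 2 with both and 0 with LacZ and no odd.

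Chaperone genes had 6 of 32 with a peak, 4 with odd and no LacZ and 2 with LacZ and no odd. The odd class held HSP90AB1 and its cochaperones STIP1, at 426.5 reads per bin, and ST13, at 250, with the endoplasmic reticulum protein PDIA4 at 178.7. The inducible paralog HSP90AA1 was on the LacZ side with 186. By deposited p-value the median best rank of the 4 chaperone genes with an odd peak was 347.5, against 243 over all genes with an odd peak. Of the 4, 0 had an odd peak with a p-value under 0.001. Sarcomere and myogenic genes had 7 of 48 with a peak: 4 with odd and no LacZ, where RYR1 at 120 and MEF2D at 112 join TNNT1 and DES, TNNT2 with both, and 2 with LacZ and no odd. Of those 2, SGCZ had 960.5 LacZ reads per bin and TPM2, a tropomyosin, 287.

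Chromatin regulators had 21 of 75 with a peak, 7 with odd and no LacZ (33.3%), 8 with both (38.1%) and 6 with LacZ and no odd (28.6%), so their odd share was that of the background while more of them were shared. SMARCA4, the ATPase of a remodelling complex, had 1 odd peak of 244 reads per bin and 5 LacZ peaks from 48 to 263. Actin, septin and membrane linker genes had 15 of 51 with a peak, 6 with odd and no LacZ (40%), 4 with both (26.7%) and 5 with LacZ and no odd (33.3%). The related linkers of actin to the membrane were split, with RDX in the odd class at 254 and 189.5, EZR shared on the same bases at 326 odd and 131 LacZ, and MSN shared with odd peaks of 701, 355 and 273 and a LacZ peak of 101 elsewhere.

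Microtubule-binding and centrosome genes, to which CKAP5 belongs, had 17 of 56 with a peak, and 10 of them had a LacZ and no odd peak (58.8%). The odd class held 4 genes: CKAP5, CLIP1, a protein of growing plus ends, at 254.5 and 197 reads per bin, TPX2, a spindle assembly factor, at 184.5 and MAP4 at 124. The LacZ class held MAP1A at 438, MAP7D1 at 425 and CDK5RAP2 at 223.5 among others, and 0 genes of this list had overlapping odd and LacZ peaks. Collagens and laminins had 8 of 56 with a peak, 0 with odd and no LacZ, 2 with both (COL4A1, with odd peaks up to 614.7, and COL4A2) and 6 with LacZ and no odd. Of 83 ribosomal protein genes, 1 had a peak, RPL7 with LacZ. The remaining of the 27 lists had from 0 to 7 genes with a peak, among them 7 zinc finger genes, of which 3 had odd and no LacZ (the probe target ZNF609, ZNF184 and ZNF853) and 4 LacZ and no odd (ZNF618, ZNF629, ZNF692 and ZNF830), 4 dynein and dynactin genes, of which 2 had odd and no LacZ and 2 both, and 0 blood and immune markers.

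**Figure D5:**
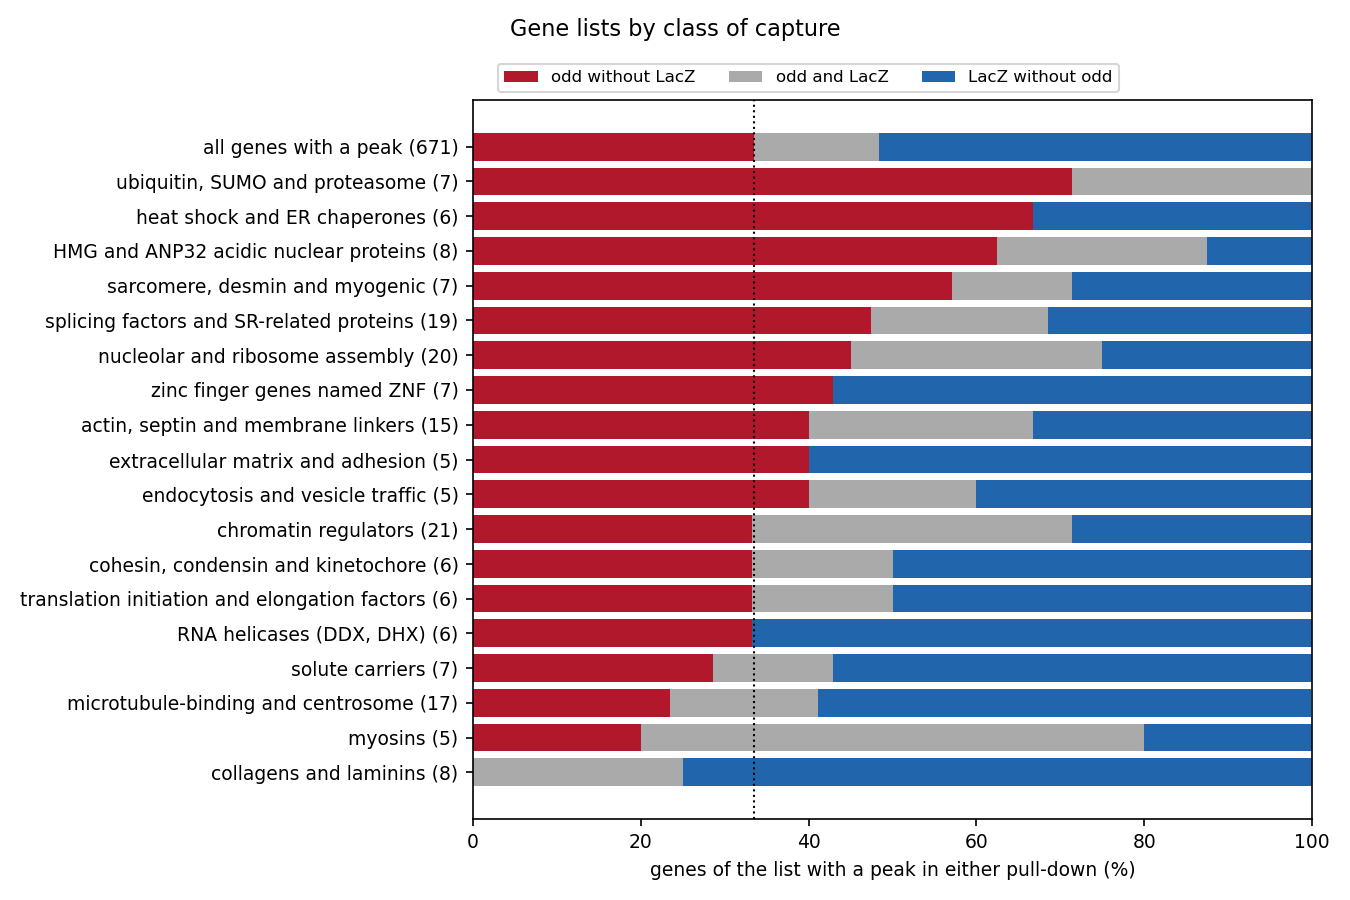
Genes of each list that had a peak in either pull-down (number in brackets), as percent with an odd and no LacZ peak (red), with both (grey) and with a LacZ and no odd peak (blue), for lists with at least 5 such genes; the dotted line is the odd share over all 671 genes, 33.5%. The ubiquitin, chaperone and HMG and ANP32 lists have the largest odd shares, on 5, 4 and 5 genes, and collagens and laminins have 0% odd without LacZ.

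The lists are small and the counts carry no test, so no list is called particular to the odd probes. With the LacZ list limited to the 401 peaks that had at least the reads of the weakest odd peak, the genes with odd and no LacZ peak became 267, since weak LacZ peaks no longer removed genes from that class. With only peaks of a deposited p-value under 0.001, 75 genes were in that class, of which 62 were among the 225, and ANP32B, HSP90AB1, INTU, POLR3D, RPS6KA2 and TAP1 were among the named genes that dropped out.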

How the data were processed

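RNA captured from RD cells with odd ZNF609 probes or with LacZ probes was sequenced, 1 library each. Per the labels' protocols, Qiazol and miRNeasy columns gave the RNA, the Ovation RNA v2 kit the cDNA, and Ovation Ultralow v2 the library. The submitters' processing notes name GRCh38, STAR 2.5.2b, Picard, SAMtools, bedtools, Trimmomatic and bcl2fastq 2.0.2, and the names of the lists give Piranha as peak caller. Its version and settings, library depth and handling of duplicates were not given in the sources used here.

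Each list has 8 columns without a header. The signal the authors deposited in column 5 was read from its values as reads per bin of 170 bases, averaged over joined bins and unscaled. The deposited p-value in column 7 was below 0.01 in every peak. A further deposited score, of unnamed kind, has a fixed value of 0.01 in some bins.

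Peaks were matched on at least 1 shared base. A peak went to the RefSeq gene span (GRCh38.p14) with the most shared bases, then to a protein-coding and then a shorter gene. More than 1 span was overlapped by 44 odd and by 62 LacZ peaks, and the kits kept no strand. Python 3.11.15, pandas 2.3.3 and scipy 1.17.1 were used, and the matching was tested on simulated peaks. Named genes were ZNF609 and CKAP5, the 25 strongest with odd and no LacZ peak, the 12 strongest with overlapping peaks, the 12 strongest with LacZ and no odd peak, genes with at least 4 odd peaks, and gene list members as examples. The members and lists were chosen with earlier results of these data known. The alternatives were a p-value limit, other overlap rules, shorter LacZ lists, no fixed-score peaks and every gene span.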

Additional observations from a re-analysis of the deposited data

How the results depend on the processing

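Of 57 alternative values, 44 stayed within the interval, or within 1.5 times, of the reported value and 13 moved. Part of the 44 could not move. The overlap rules do not enter the gene classes or the shares outside genes. Counting every gene span does not enter the peak overlaps or the shares outside genes. A shorter LacZ list leaves the odd share outside genes as it is. The count of 44 is therefore no measure of stability. With deposited p-values under 0.001 (139 odd and 267 LacZ peaks) the odd overlap was 9.35% and the LacZ overlap 4.87%, and 75 genes had odd and no LacZ, 17 both, 158 LacZ and no odd, and 10 overlapping peaks. With LacZ peaks of at least the reads of the weakest odd peak (401 peaks) the odd overlap was 10.9%, the LacZ share outside genes 14.5%, and 58 genes had both and 194 LacZ and no odd. Without peaks over the fixed score the LacZ overlap was 14.8% and the LacZ share outside genes 4.52%. The cause was not tested, beyond the smaller number of peaks in each setting. Ranked by p-value, 14 of the 25 strongest genes were chosen again. The amino acid content of the encoded proteins and, beyond the 5 printed windows, the base content of peaks were planned and not run, since no protein table or genome sequence was used here. No paired analysis was possible because each probe set has 1 library. Library depth is unknown, so a missing peak does not show a missing RNA.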
